A study of Homo sapiens with 18 samples.

Results

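The 10 genes described here encode transcription factors that maintain epithelial identity: the grainyhead-like factors GRHL1, GRHL2 and GRHL3, the zinc-finger repressors OVOL1 and OVOL2, the ETS-domain factors ELF3, EHF and SPDEF, and the Krüppel-like factors KLF4 and KLF5. They were taken by symbol from the 61541 genes counted in the RNA-seq libraries, 61369 of which carried a symbol, and all 10 were found. The 18 libraries came from A549, a wild type human lung adenocarcinoma cell line that stands for non-small cell lung cancer, and formed 6 groups of 3. In the first count table, cells treated with 5 mM sodium propionate (SP), the salt of a short-chain fatty acid made by gut bacteria, for 3 days or for 12 days were set against cells without treatment at 3 days. In the second table, cells given the same dose for 3 h or for 24 h were set against cells without treatment at 24 h. A single cell line limits all groups as a model, and since the cells treated for 3 h and for 12 days had no control of their own time, SP and time in culture cannot be told apart in those comparisons. The study describes the 3 h and 24 h libraries as biological replicates, but the labels do not say for any group that the libraries came from separate cultures, so the p-values measure the spread between these libraries.

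Libraries held from 15425281 to 21992046 assigned reads in the first table and from 14187401 to 43765330 in the second. The summed level of 10 markers of A549 epithelium lay between 17162 and 24033 CPM, reads normalized for library size by the TMM method, in every library, against 2.89 to 37.8 for 4 leukocyte markers, 0.245 to 2.88 for 3 endothelial markers and 0.491 to 10.6 for 4 fibroblast and pericyte markers. CD3E had no read in any library. CD14, which made up most of the leukocyte sum, rose by 2.22 at 24 h and by 1.08 at 3 days on the log2 scale, and LUM, a fibroblast marker, rose by 2.04 at 3 days and by 3.03 at 12 days. PDGFRB, of pericytes, rose by 3.50 ± 0.76 (SE) at 24 h, but from 3 reads in the control group (0.041 CPM) to 0.558 CPM, near the limit of detection. CDH5, of endothelium, fell by 0.94 at 3 days and by 1.5 at 12 days. No other tested marker of these 3 lists passed against control. Of the 10 markers of A549 epithelium, 5 rose and 4 fell at each time from 24 h on. The part of these markers in the changes below was not tested.

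Grainyhead-like factors bind the regulatory regions of genes for cell junctions and the epithelial barrier and keep them open. OVOL factors repress the inducers of epithelial-to-mesenchymal transition (EMT), the loss of epithelial character through which carcinoma cells gain motility. ELF3 and EHF act in the differentiation of surface and glandular epithelium, SPDEF drives the mucus-secreting goblet cell program of the airway, and KLF4 and KLF5 govern differentiation and growth of epithelial cells. The comparisons addressed whether SP changed the expression of these factors at early and late times of treatment.

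The promoters of the members differed in base composition, and 3 are shown because their genes changed in different ways. The table of promoters used here had no entry for OVOL1, OVOL2 or GRHL2. Each run is the 250 bases before a transcription start in RefSeq, on GRCh38.p14, read 5′ to 3′ on the strand of the gene, and capitals mark the GC box GGGCGG (or CCGCCC on the other strand). For GRHL1 the run is chr2:9951443-9951692 on the plus strand, for SPDEF chr6:34556330-34556579 on the minus strand, and for EHF chr11:34632316-34632565 on the plus strand, before the second of its starts and inside the annotated gene.
GRHL1: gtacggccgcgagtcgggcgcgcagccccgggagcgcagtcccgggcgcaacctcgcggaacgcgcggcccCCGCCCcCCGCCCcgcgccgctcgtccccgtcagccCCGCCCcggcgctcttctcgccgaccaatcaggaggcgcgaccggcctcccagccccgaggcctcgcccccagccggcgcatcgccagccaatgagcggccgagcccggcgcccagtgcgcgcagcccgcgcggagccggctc
SPDEF: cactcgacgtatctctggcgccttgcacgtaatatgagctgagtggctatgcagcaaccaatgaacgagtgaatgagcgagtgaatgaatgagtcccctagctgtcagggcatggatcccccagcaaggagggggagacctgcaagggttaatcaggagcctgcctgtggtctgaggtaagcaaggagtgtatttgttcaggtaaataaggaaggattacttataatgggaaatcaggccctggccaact
EHF: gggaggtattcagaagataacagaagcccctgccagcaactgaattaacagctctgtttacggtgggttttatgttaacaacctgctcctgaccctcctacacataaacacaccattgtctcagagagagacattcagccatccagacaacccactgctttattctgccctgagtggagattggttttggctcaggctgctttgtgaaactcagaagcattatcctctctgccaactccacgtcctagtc

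The GRHL1 window held 45 CpG dinucleotides and was 81.6% G or C, with 3 GC boxes. The SPDEF window held 6 CpG dinucleotides at 50.8% G or C, and the EHF window held 2 at 47.6%, neither with a GC box. Across all 35116 promoters of the table the median was 11 CpG dinucleotides, and 42.6% held a GC box on either strand. KLF4 (25 CpG dinucleotides, 4 GC boxes) and the second start of KLF5 (27 CpG dinucleotides, 2 GC boxes) were also rich. The first start of KLF5 held 3 CpG dinucleotides, ELF3 4, the first start of EHF 4, and the starts of GRHL3 3 and 10. Among these only the first GRHL3 start held a GC box. In all, 10 promoters of 7 members were read. No member window held the grainyhead-like motif AACCGGTT, which 0.117% of all promoters held, or the OVOL motif CCGTTA, held by 2.45%. The E-box CAGGTG, to which ZEB and SNAI repressors bind, was present in the first GRHL3 promoter and in the ELF3 promoter, and in 17.5% of all promoters. No match of 1 motif overlapped a match of another.

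Of the members, 8 passed the expression filter in both tables and were tested by edgeR's quasi-likelihood test with Benjamini-Hochberg adjustment, over 17377 genes for 3 h and 24 h and 17775 genes for the late times. Among them OVOL2 passed through its treated libraries alone, so it had little room to be called lower than control. Here rose and fell mean an adjusted p under 0.05, and the study's own rule (at least 2-fold with an adjusted p below 0.0001) is given beside it. GRHL1 and OVOL2 rose in all 4 comparisons with control, SPDEF fell at 3 and 12 days, and the other members moved less or changed direction between times. At 3 h, 3 members rose and 1 fell, against a background of 11.5% of all tested genes called, 7.39% higher and 4.11% lower. At 24 h, 5 rose and 0 fell, against 28.8% called (16.8% higher, 12% lower). None of the members fell at 24 h at an unadjusted p under 0.05 either, by edgeR or by DESeq2. At 3 days 2 rose and 5 fell, against 48.6% called (25.2% higher, 23.3% lower), and at 12 days 4 rose and 2 fell, against 49.8% called (26.4% higher, 23.4% lower). Close to 1 gene in 2 was therefore called at the late times, so that the size of a change says more there than the call. By the study's rule 2 members were higher and 1 lower at both late times, against 8.44% of genes at 3 days (6.58% higher, 1.86% lower) and 9.11% at 12 days (6.88% higher, 2.23% lower). The median log2 fold change of the tested members was 0.43 at 3 h, 0.46 at 24 h, −0.32 at 3 days and 0.06 at 12 days, and over all tested genes it was 0.00, −0.01, −0.02 and −0.00.

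**Figure D1:**
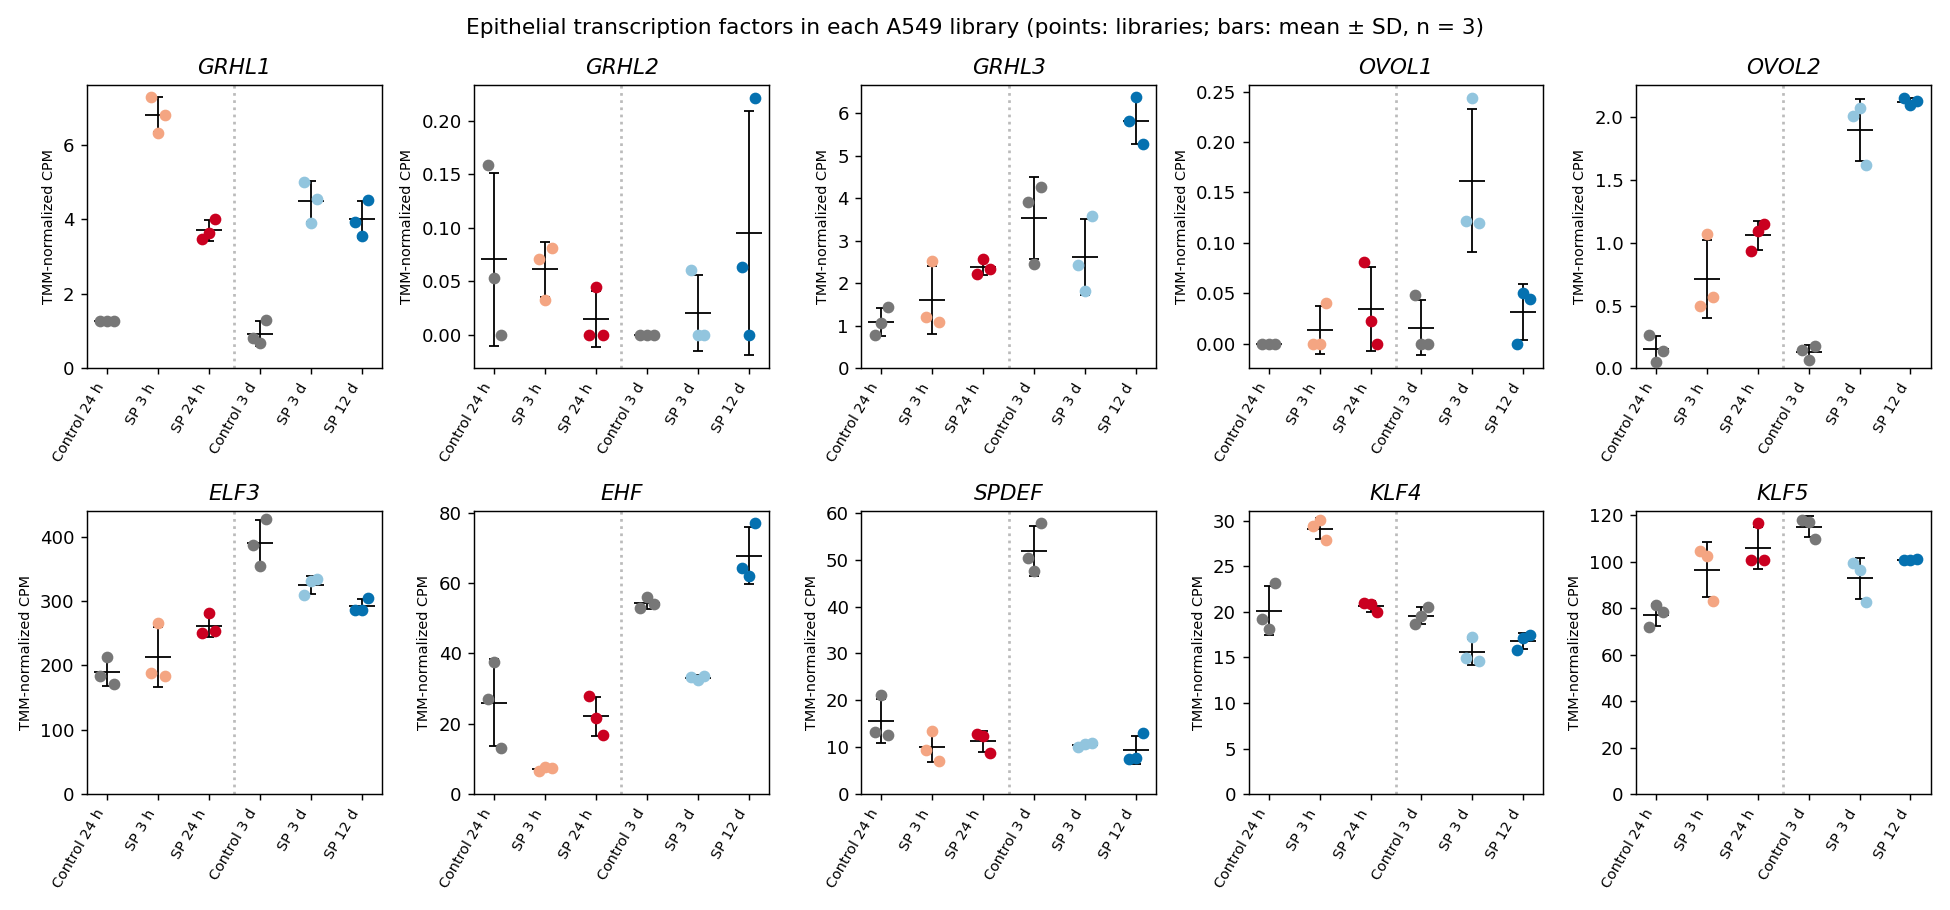
TMM-normalized CPM (y axis, a scale of its own for each gene) of the 10 factors in each of the 18 libraries (points) with the group mean and SD (bars, n = 3), by group (x axis), the second table to the left of the dotted line and the first table to its right. GRHL1 and OVOL2 stand above control in every SP group, SPDEF lies at 7.59 to 12.94 CPM after 3 or 12 days of SP against 47.50 to 57.86 in the control, and GRHL2 and OVOL1 rest on a few reads.

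GRHL1 (ENSG00000134317, chromosome 2, 9951693 to 10002277, plus strand), a grainyhead-like factor of skin and other lining epithelia whose protein the study also followed, was low in untreated cells. Its level was 1.27, 1.27 and 1.26 CPM in the 24 h control libraries, 7.27, 6.32 and 6.81 CPM after 3 h of SP, and 3.48, 3.63 and 4.02 CPM after 24 h. Every library at 3 h lay above every library at 24 h, and these in turn lay above the control. The log2 fold change was 2.42 ± 0.16 (SE) at 3 h (edgeR adjusted p = 1.04e-04) and 1.55 ± 0.16 at 24 h (edgeR adjusted p = 1.71e-04). The fall from 3 h to 24 h of SP was itself past the threshold, at −0.87 (edgeR adjusted p = 0.00321). At the late times GRHL1 stood at 0.81, 0.69 and 1.30 CPM in the 3 day control, 5.00, 3.90 and 4.55 CPM after 3 days of SP, and 3.92, 3.54 and 4.52 CPM after 12 days. The treated libraries did not overlap the control, while those of 3 and 12 days overlapped each other. GRHL1 was 4.79-fold higher than control at 3 days (log2 fold change 2.26 ± 0.24, edgeR adjusted p = 1.46e-06) and 4.28-fold higher at 12 days (2.10 ± 0.24, edgeR adjusted p = 2.91e-06). Both late values passed the study's rule. At 3 h, where the background of that rule was 0% of genes, and at 24 h, where it was 0.685% (0.622% higher, 0.0633% lower), edgeR called 0 members by it. DESeq2, which passed 2.39% of all genes by the same rule at 3 h and 6.86% at 24 h, called GRHL1 and EHF at 3 h and GRHL1 and OVOL2 at 24 h.

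GRHL3 (ENSG00000158055, chromosome 1, 24199558 to 24364482, plus strand), known for its part in the skin barrier and in closure of the neural tube, rose at 24 h and at 12 days. It measured 0.79, 1.06 and 1.44 CPM in the 24 h control, 1.20, 2.53 and 1.10 CPM after 3 h of SP, and 2.23, 2.57 and 2.33 CPM after 24 h. The 24 h libraries lay above all control libraries, whereas those of 3 h overlapped them, with replicate 2 apart from the other two. The log2 fold change was 1.09 ± 0.34 at 24 h (edgeR adjusted p = 0.0383), a call lost without replicate 1 or 2 of the control or any 1 of the treated libraries (adjusted p up to 0.134 by edgeR). At the late times the control held 3.92, 2.44 and 4.26 CPM, SP for 3 days 2.44, 1.83 and 3.59 CPM, and SP for 12 days 5.82, 6.39 and 5.27 CPM. At 3 days the groups overlapped, with a log2 difference of −0.44 ± 0.25 (edgeR adjusted p = 0.157) that passed when replicate 2 of the control or replicate 3 of the treated cells was left out. At 12 days every library exceeded the control, by 0.71 ± 0.23 on the log2 scale (edgeR adjusted p = 0.0162, and 0.0903 without replicate 2 of the control). GRHL3 was 2.22-fold higher at 12 than at 3 days of SP (log2 1.15, edgeR adjusted p = 0.00767, and 0.0548 without replicate 2 of the 3 day group).

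GRHL2 (ENSG00000083307), a grainyhead-like factor that upholds E-cadherin expression in many epithelia, was at the limit of detection and was not tested. The 24 h control libraries held 3, 1 and 0 reads of it, those of 3 h of SP 1, 1 and 2, and those of 24 h 0, 2 and 0. The 3 day control held 0 reads in every library, SP for 3 days 1, 0 and 0, and SP for 12 days 1, 0 and 5. The 6 reads at 12 days against none correspond to at least 1.84-fold when the control is set to a floor of 3 reads over the group, but 5 of them were in replicate 3, and the other two libraries held 1 and 0. GRHL2 was too low for a test in any comparison.

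OVOL2 (ENSG00000125850, chromosome 20, 17956979 to 18059188, minus strand), a repressor of ZEB1 and of other mesenchymal genes, changed by the largest factor among the 8 tested members at 24 h, 3 days and 12 days. It was close to absent in untreated cells, with 0.26, 0.05 and 0.14 CPM in the 24 h control, against 0.49, 1.07 and 0.57 CPM after 3 h of SP and 0.93, 1.10 and 1.15 CPM after 24 h. Both treated groups lay wholly above the control, and replicate 2 at 3 h reached the level of 24 h. The log2 fold change was 2.27 ± 0.50 at 3 h (edgeR adjusted p = 0.0180, lost without replicate 2 of either group, at 0.0587 and 0.0871) and 2.78 ± 0.47 at 24 h (edgeR adjusted p = 0.00235). Later OVOL2 measured 0.14, 0.06 and 0.18 CPM in the control, 2.01, 2.07 and 1.62 CPM after 3 days and 2.15, 2.10 and 2.13 CPM after 12 days. The groups were far apart, and the 12 day libraries were almost equal. The log2 fold change was 3.80 ± 0.37 at 3 days (edgeR adjusted p = 5.74e-07) and 3.96 ± 0.36 at 12 days (edgeR adjusted p = 2.42e-07), both past the study's rule. Since the controls held 10 and 7 reads of OVOL2 in all, the ratios are loose: from summed reads they were 5.15 (95% counting interval 2.60 to 11.3) at 3 h, 7.10 (3.71 to 15.2) at 24 h, 14.6 (6.81 to 37.3) at 3 days and 16.3 (7.68 to 41.4) at 12 days. These intervals cover counting error only. With at most 5 reads in a control library, OVOL2 passed the filter through the treated libraries. At its control level it would not have been tested. Exons of OVOL2 share 59 bases with SNX5.

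OVOL1 (ENSG00000172818, chromosome 11, 65787063 to 65797214), the related repressor of skin and germ line, was below the filter. It had 0 reads in all 24 h control libraries, 0, 0 and 1 after 3 h of SP and 2, 1 and 0 after 24 h. Of the late groups, it had 1, 0 and 0 reads in the control, 2, 4 and 2 after 3 days of SP and 0, 1 and 1 after 12 days. The 3 day group held 8 reads against 1, a ratio of 8.69 whose 95% counting interval ran from 1.16 to 386, and every library of that group exceeded every control library. No fold change of useful precision was obtained for OVOL1 at any time.

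The ETS factors did not move together. ELF3 (ENSG00000163435, chromosome 1, 202007945 to 202017183, plus strand), an epithelium-specific ETS factor, was the member with the highest level. It measured 183.23, 213.62 and 171.27 CPM in the 24 h control, 188.99, 266.23 and 184.04 CPM after 3 h and 250.22, 281.71 and 252.95 CPM after 24 h of SP. The 24 h libraries lay above the control, those of 3 h overlapped it. The difference at 24 h was 0.47 ± 0.15 on the log2 scale (edgeR adjusted p = 0.0472), next to the threshold and lost with DESeq2's size factors (0.0546), with a correction for GC content and length (0.21, adjusted p = 0.314 by edgeR) and without any 1 of several libraries (replicates 1 and 3 of the control, replicate 1 of 3 h and each replicate of 24 h). At the late times ELF3 moved the other way, from 387.32, 355.03 and 427.50 CPM in the control to 309.54, 331.76 and 334.15 CPM after 3 days and 286.23, 285.92 and 304.26 CPM after 12 days. All treated libraries were below all controls. ELF3 fell by 0.26 ± 0.08 at 3 days on the log2 scale (edgeR adjusted p = 0.0165, lost without replicate 3 of the control or replicate 1 of the treated cells, at up to 0.0718) and by 0.42 ± 0.08 at 12 days (edgeR adjusted p = 6.60e-04). Of the merged exon bases of ELF3, 1328 are shared with other genes, among them its antisense transcript ELF3-AS1, and the strand setting of the counting is not given in the sources used here. Antisense transcripts also share 244 exon bases with GRHL1, 1039 with OVOL1 and 357 with KLF4.

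EHF (ENSG00000135373, chromosome 11, 34621093 to 34663288, plus strand), the ETS homologous factor of glandular and airway epithelium, had the most varied course. Its level was 27.16, 37.67 and 13.04 CPM in the 24 h control, 6.63, 7.59 and 7.46 CPM after 3 h of SP, and 28.00, 21.51 and 16.78 CPM after 24 h. The 3 h libraries were tightly grouped below a control that varied widely, and the 24 h libraries overlapped the control. EHF was 3.57-fold lower than control at 3 h (log2 fold change −1.84 ± 0.35, edgeR adjusted p = 0.0109), a difference of −0.23 ± 0.33 remained at 24 h (edgeR adjusted p = 0.626), and the rise from 3 h to 24 h was 1.61 (edgeR adjusted p = 0.0136, and 0.0521 without replicate 1 of the 3 h group). Later EHF stood at 52.89, 56.14 and 54.08 CPM in the control, 33.23, 32.42 and 33.62 CPM after 3 days and 64.30, 61.92 and 77.01 CPM after 12 days. The groups were fully separate, with 3 days below and 12 days above the control. EHF fell by 0.72 ± 0.09 at 3 days (edgeR adjusted p = 1.08e-05) and rose by 0.32 ± 0.09 at 12 days (edgeR adjusted p = 0.00755), and between the SP groups it was 2.05-fold higher at 12 than at 3 days (log2 1.03, edgeR adjusted p = 1.07e-05). It was the only tested member past the study's rule between the late SP groups, where 0.18% of all genes passed it (0.152% higher, 0.0281% lower).

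SPDEF (ENSG00000124664, chromosome 6, 34537802 to 34556333, minus strand), the goblet cell ETS factor, fell further than any other tested member at the late times. In the first table it went from 50.45, 47.50 and 57.86 CPM in the control to 10.12, 10.60 and 10.95 CPM after 3 days and 7.59, 7.73 and 12.94 CPM after 12 days of SP. No treated library came near the control, and replicate 3 at 12 days was above the other two. SPDEF was 4.92-fold lower at 3 days (log2 fold change −2.30 ± 0.17, edgeR adjusted p = 7.61e-08) and 5.45-fold lower at 12 days (−2.45 ± 0.17, edgeR adjusted p = 3.46e-08), and was the member lower by the study's rule at both times. In the second table the 24 h control already held less, 13.24, 21.08 and 12.52 CPM, beside 9.45, 13.49 and 7.13 CPM after 3 h and 12.79, 12.33 and 8.68 CPM after 24 h. These groups overlapped, and the log2 differences were −0.63 ± 0.28 (edgeR adjusted p = 0.197) and −0.47 ± 0.28 (edgeR adjusted p = 0.231). With the replicate number as a block SPDEF passed at 3 h (−0.65, edgeR adjusted p = 0.0492), and with the correction for GC content and length it passed at 24 h (−0.86, edgeR adjusted p = 0.0318).

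The Krüppel-like factors changed little. KLF4 (ENSG00000136826, chromosome 9, 107484852 to 107490482, minus strand), a pluripotency and differentiation factor, measured 19.16, 18.07 and 23.14 CPM in the 24 h control, 29.42, 30.10 and 27.83 CPM after 3 h and 20.96, 20.88 and 19.92 CPM after 24 h of SP. The 3 h group alone stood apart. KLF4 rose by 0.53 ± 0.12 at 3 h (edgeR adjusted p = 0.0209, lost without replicate 1 or 2 of either group, at up to 0.0883, and with no filter, at 0.0562), was 0.03 ± 0.12 from control at 24 h (edgeR adjusted p = 0.859), and fell by 0.50 between these SP times (edgeR adjusted p = 0.0185). At the late times it held 18.65, 19.55 and 20.51 CPM in the control, 14.88, 17.25 and 14.60 CPM after 3 days and 15.81, 17.12 and 17.46 CPM after 12 days. All treated libraries were lower, by −0.33 ± 0.10 at 3 days (edgeR adjusted p = 0.0158, lost without replicate 3 of the control or replicate 1 or 3 of the treated cells) and by −0.22 ± 0.10 at 12 days (edgeR adjusted p = 0.0891, and 0.0387 without replicate 3 of the 12 day group).

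KLF5 (ENSG00000102554, chromosome 13, 73054976 to 73077541, plus strand), a growth-promoting factor of gut and lung epithelium, was next to ELF3 in level. It measured 71.95, 81.37 and 78.12 CPM in the 24 h control, 104.47, 102.26 and 83.01 CPM after 3 h and 100.63, 116.47 and 100.64 CPM after 24 h. Both SP groups lay above the control. KLF5 was higher by 0.32 ± 0.12 at 3 h (edgeR adjusted p = 0.117) and rose by 0.46 ± 0.12 at 24 h (edgeR adjusted p = 0.0184, lost without replicate 1 of the control or replicate 2 of the treated cells). At the late times the order turned, with 118.06, 117.05 and 109.70 CPM in the control, 99.32, 96.22 and 82.73 CPM after 3 days and 100.72, 100.69 and 100.93 CPM after 12 days. KLF5 fell by 0.31 ± 0.08 at 3 days (edgeR adjusted p = 0.00530) and differed by −0.19 ± 0.08 at 12 days (edgeR adjusted p = 0.0639). The 12 day difference passed without replicate 3 of the 3 day SP group (0.0288) or of the 12 day group (0.0305, edgeR adjusted p).

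**Figure D2:**
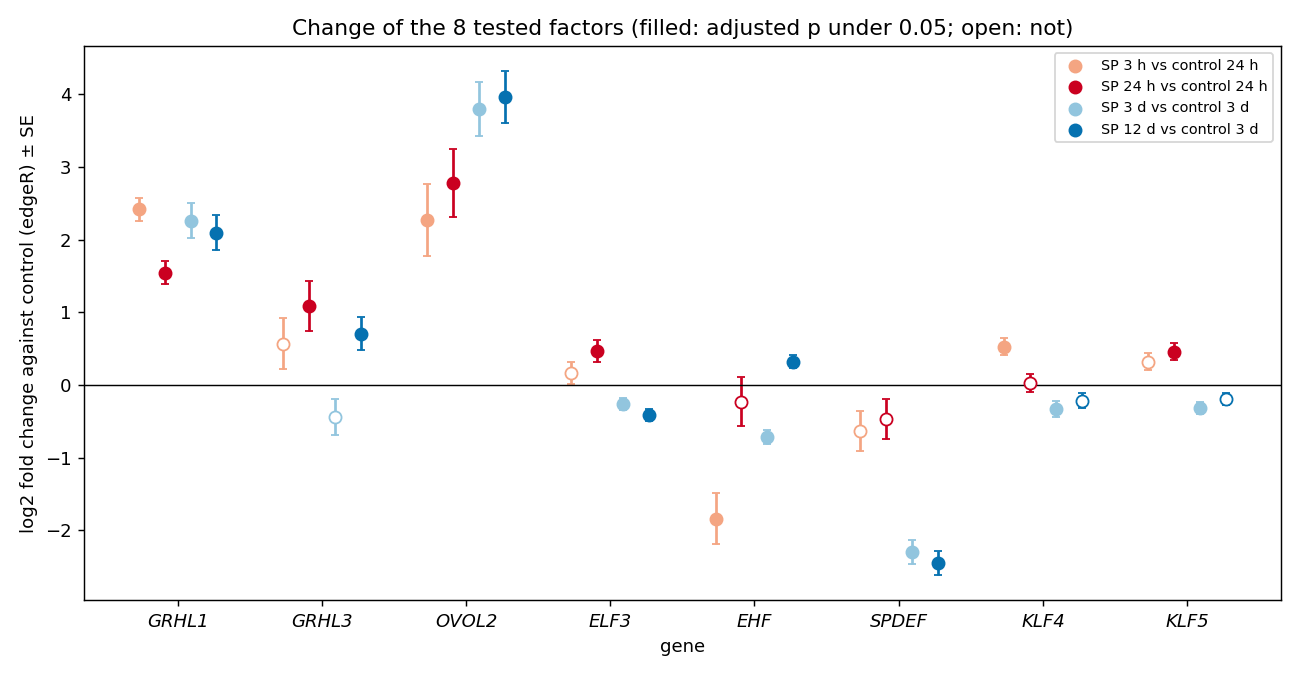
Log2 fold change against the control of the same table (y axis, edgeR, bars ± SE) for the 8 tested factors (x axis) at each SP time (colours), filled where the adjusted p was under 0.05 and open where it was not. GRHL1 and OVOL2 are filled and above 0 at all 4 times, SPDEF reaches −2.30 and −2.45 at 3 and 12 days, and ELF3 and KLF5 lie above 0 in the second table and below 0 in the first.

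Counted over the comparisons with control, GRHL1 and OVOL2 rose in 4 of 4, GRHL3 rose in 2 and fell in none, and SPDEF fell in 2 and rose in none. EHF and ELF3 each rose in 1 and fell in 2, and KLF4 and KLF5 each rose in 1 and fell in 1. The comparisons within a table share their control libraries, and OVOL2 was tested only because of its treated libraries. The size of the change set GRHL1 above 99.2% of all tested genes at 3 h, 93.1% at 24 h, 95.9% at 3 days and 94.9% at 12 days, and OVOL2 above 99.1%, 98.0%, 98.9% and 98.9%. For KLF5 the corresponding shares were 59.3%, 56.8%, 44.2% and 28.6%. The libraries of 4 members lay wholly above and of 1 wholly below the control at 3 h, where 27.3% of all genes did not overlap (15.6% above, 11.7% below), and at 24 h the numbers were 5 and 0 against 44.4% (24.6% above, 19.8% below). At 3 days 2 lay above and 5 below, against 61.2% (30.5% above, 30.7% below), and at 12 days 4 above and 4 below, against 55.9% (28.7% above, 27.3% below).

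Between the SP times of a table, 1 member (EHF) was higher and 2 (GRHL1 and KLF4) were lower at 24 h than at 3 h, against a background of 20.1% of genes called, 11.7% higher and 8.4% lower. By the study's rule 0 of these passed with edgeR, against 0.0288% of genes, all of them higher. EHF and GRHL3 were higher at 12 than at 3 days, against 8.1% called (4.46% higher, 3.65% lower). The libraries of 1 member lay wholly above and of 2 wholly below from 3 h to 24 h, where 44.9% of all genes did not overlap (23.3% above, 21.6% below), and from 3 to 12 days 4 lay above and 1 below, against 26.8% (13.9% above, 12.9% below). OVOL2 differed by 0.51 between 3 h and 24 h (edgeR adjusted p = 0.338) and by 0.16 between 3 and 12 days (edgeR adjusted p = 0.728), and SPDEF by −0.15 between the late times (edgeR adjusted p = 0.662). SPDEF passed there when replicate 3 of the 12 day group was left out (−0.47, edgeR adjusted p = 0.00636).

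To set the levels of different factors side by side, CPM was divided by the length of the merged exons in kb. In the 24 h control ELF3 was highest at 26.4 CPM per kb, followed by KLF5 at 21.0, SPDEF at 8.16, KLF4 at 5.50 and EHF at 3.92, and the libraries of KLF4 and EHF overlapped. GRHL3 (0.257), GRHL1 (0.159) and OVOL2 (0.069) were lower by more than 1 order of magnitude. After 3 h of SP, KLF4 took the third place at 7.95 CPM per kb, EHF had dropped to 1.09, GRHL1 at 0.855 came next to it, and OVOL2 reached 0.323 CPM per kb, overlapping GRHL3 at 0.377. After 24 h the 3 low factors were close in level: GRHL3 measured 0.557, OVOL2 0.480 and GRHL1 0.466 CPM per kb, the last 2 overlapping.

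In the 3 day control the order was ELF3 at 54.3 CPM per kb, KLF5 at 31.2 and SPDEF at 27.1, the last 2 overlapping, then EHF at 8.22, KLF4 at 5.34, GRHL3 at 0.830, GRHL1 at 0.117 and OVOL2 at 0.058. After 3 days of SP, OVOL2 had moved from the last place of the 8 to 0.862 CPM per kb, beside GRHL3 at 0.614 and GRHL1 at 0.564, each overlapping its neighbour in the order. After 12 days EHF was the third at 10.2 CPM per kb and SPDEF, at 4.92, overlapped KLF4 at 4.59. The controls of the tables were not alike: SPDEF, EHF, ELF3, KLF5 and GRHL3 were higher per library at 3 days than at 24 h in untreated cells, as the values above show. As each table was scaled on its own this difference was not tested.

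**Figure D3:**
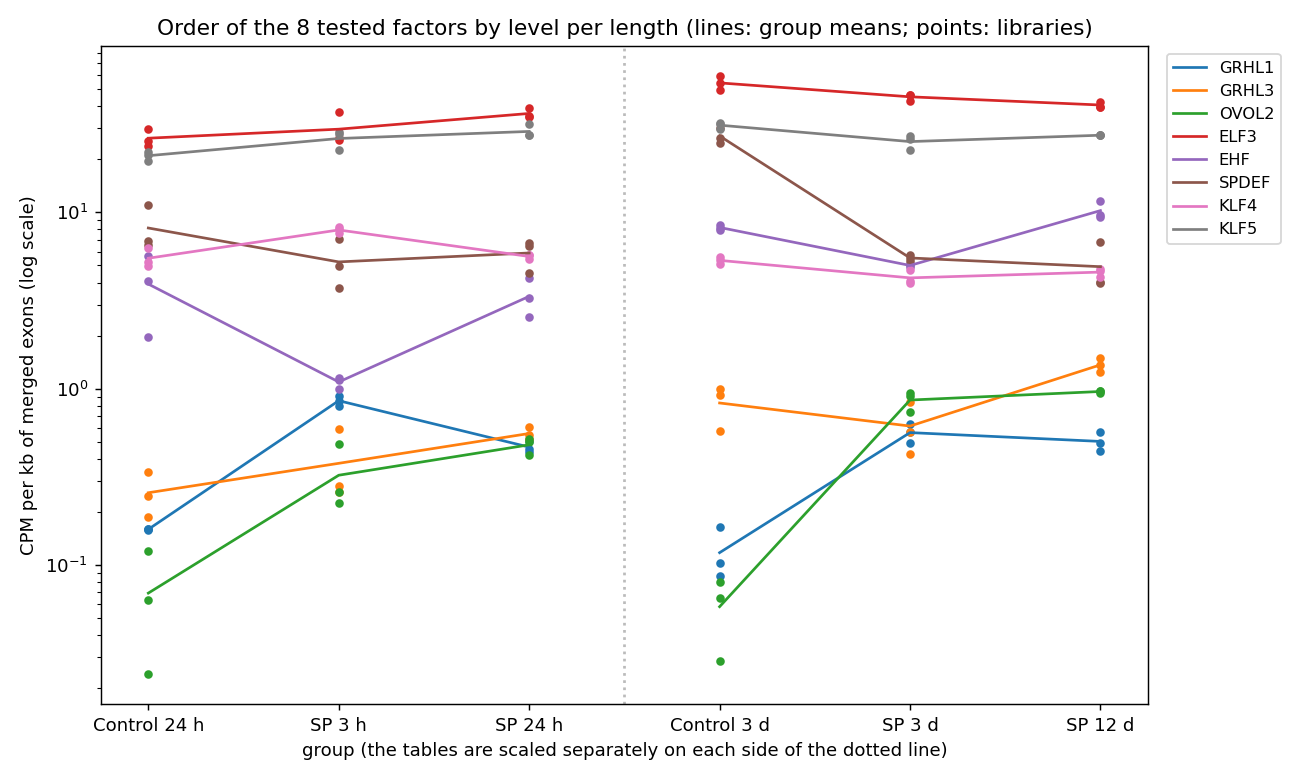
Mean CPM per kb of merged exons (y axis, log scale) of the 8 tested factors in each group (x axis), with lines joining the group means, points for the 3 libraries of a group, and a dotted line between the separately scaled tables. OVOL2 climbs from 0.058 to 0.862 and GRHL1 from 0.117 to 0.564 between the 3 day control and 3 days of SP, while SPDEF descends from 27.1 to 4.92 by 12 days and ELF3 and KLF5 keep the first places.

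Genes that grainyhead-like or OVOL factors are known to regulate were followed as a list of 16, of which 11 passed the filter in the second table and 14 in the first. At 3 h 3 rose and 0 fell (median log2 fold change 0.67), at 24 h 9 rose and 0 fell (2.23), at 3 days 10 rose and 1 fell (1.37), and at 12 days 9 rose and 0 fell (1.21). The shares called were 27.3%, 81.8%, 78.6% and 64.3% of the tested genes, beside 11.5%, 28.8%, 48.6% and 49.8% of all genes. In the second table SPINT1, CLDN7 and ST14, with 20, 14 and 20 reads in the control group, passed the filter through treated libraries. So did ESRP1 and PRSS8 in the first table, with 12 and 6 control reads. Genes admitted this way had little room to be called lower, and they are part of these counts and shares. The list also holds CDH1 and EPCAM, which the study had already reported as higher after SP. SPINT1, an inhibitor of membrane serine proteases, rose by 1.86 ± 0.40 at 3 h (edgeR adjusted p = 0.0163), 5.21 ± 0.35 at 24 h, 3.05 ± 0.24 at 3 days and 2.82 ± 0.24 at 12 days. CLDN4, a tight junction claudin, rose by 1.58 ± 0.22, 2.82 ± 0.22, 2.44 ± 0.17 and 2.37 ± 0.17 at the same times, and ERBB3, a receptor of the EGFR family, by 2.22 ± 0.26 at 3 h, 3.02 ± 0.26 at 24 h and 0.50 ± 0.12 at 3 days. At 12 days ERBB3 differed from control by −0.06 ± 0.12 (edgeR adjusted p = 0.712). Its control level was 3.41 CPM at 24 h but 23.3 CPM at 3 days. With SP it stood at 27.8 CPM after 24 h, 33.0 CPM after 3 days and 22.2 CPM after 12 days. The difference between the controls of the separately scaled tables was not tested. ESRP1, a splicing regulator of epithelial isoforms, was tested in the first table alone, where it rose by 3.81 ± 0.32 at 3 days and 5.82 ± 0.27 at 12 days from 0.217 CPM in the control. CDH1, the E-cadherin gene, was 0.67 ± 0.36 from control at 3 h (edgeR adjusted p = 0.289) and rose by 2.23 ± 0.37, 1.38 ± 0.08 and 1.23 ± 0.08 at the later times. The mean control level of CDH1 was 34.7 CPM at 24 h and 158 CPM at 3 days, and that of SPINT1 was 0.287 and 3.79 CPM. MARVELD2, for the tricellular junction protein tricellulin, was the gene that fell at 3 days, by 0.33 ± 0.10. CDH1, MARVELD2, EPCAM, CLDN7, ST14 and PRSS8 were named after their values were seen.

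The 12 goblet cell genes linked to SPDEF, 9 of them tested, moved in unlike directions in the tables. At 3 h 1 rose and 0 fell (median log2 fold change 0.04) and at 24 h 4 rose and 0 fell (1.26), whereas at 3 days 1 rose and 5 fell (−1.0) and at 12 days 1 rose and 7 fell (−1.43). The shares called were 11.1%, 44.4%, 66.7% and 88.9% of the tested genes, beside 11.5%, 28.8%, 48.6% and 49.8% of all genes. MUC2, named after its values were seen, rose at 24 h but passed the filter of the second table through treated libraries, with 12 reads in the control group. GALNT12, named after its values were seen, was the gene that rose at the late times, by 1.74 ± 0.10 and 1.92 ± 0.10. It differed by 0.16 ± 0.19 at 3 h (edgeR adjusted p = 0.669) and rose by 1.44 ± 0.19 at 24 h. The gel-forming mucin MUC5AC fell by 2.29 ± 0.33 at 3 days and 3.68 ± 0.36 at 12 days, from 246 ± 38.0 CPM (SD, n = 3) in the control. The mucus protein gene FCGBP fell by 2.14 ± 0.39 and 4.25 ± 0.45, and the trefoil peptide gene TFF1, from a control level of 0.966 CPM, by 3.47 ± 0.53 and 2.31 ± 0.43. In the second table CREB3L1, a secretory pathway factor, rose by 2.09 ± 0.36 at 3 h and 3.73 ± 0.35 at 24 h. It differed by −0.02 ± 0.15 (edgeR adjusted p = 0.921) at 3 days and −0.37 ± 0.15 (edgeR adjusted p = 0.0511) at 12 days. Its control level was 0.68 CPM at 24 h but 13.6 CPM at 3 days. With SP it stood at 3.03 CPM after 3 h, 9.52 after 24 h, 13.5 after 3 days and 10.5 after 12 days. The difference between these controls was not tested. MUC5AC varied in the second table from 12.1 to 105 CPM among the control libraries alone, and its log2 difference of 0.91 ± 0.86 at 24 h did not pass (edgeR adjusted p = 0.444).

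The 6 repressor factors that induce EMT were all tested. SNAI1 rose at all 4 times, by 2.66 ± 0.24, 1.84 ± 0.24, 2.80 ± 0.25 and 1.89 ± 0.26, and SNAI2 rose by 1.41 ± 0.41 at 3 days and 2.01 ± 0.38 at 12 days, with differences of 0.37 ± 0.37 (edgeR adjusted p = 0.605) at 3 h and −0.78 ± 0.38 (edgeR adjusted p = 0.153) at 24 h. ZEB2 fell by 1.28 ± 0.28 at 24 h, by 0.63 ± 0.19 at 3 days and by 0.82 ± 0.19 at 12 days, after a difference of −0.12 ± 0.27 at 3 h (edgeR adjusted p = 0.843). ZEB1, named after its values were seen, fell by 0.35 ± 0.10 at 3 days and by 0.51 ± 0.10 at 12 days, and differed by −0.16 ± 0.65 (edgeR adjusted p = 0.921) at 3 h and −1.41 ± 0.67 (edgeR adjusted p = 0.147) at 24 h. In all, 1 of the 6 rose and 0 fell at 3 h, 1 rose and 1 fell at 24 h, and 2 rose and 2 fell at 3 days and at 12 days, with medians of 0.06, −0.49, 0.01 and −0.10. The shares called were 16.7%, 33.3%, 66.7% and 66.7%, beside 11.5%, 28.8%, 48.6% and 49.8% of all genes.

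Of 30 relatives of the members in the same families, 24 were tested in the second table and 25 in the first. At 3 h 2 rose and 1 fell, at 24 h 5 rose and 5 fell, at 3 days 4 rose and 13 fell, and at 12 days 3 rose and 12 fell. The shares called were 12.5% at 3 h, 41.7% at 24 h, 68% at 3 days and 60% at 12 days, beside 11.5%, 28.8%, 48.6% and 49.8% of all genes. KLF9 rose by 1.33 ± 0.32 at 3 h, 1.75 ± 0.31 at 24 h and 0.45 ± 0.11 at 3 days, and differed by 0.16 ± 0.11 at 12 days (edgeR adjusted p = 0.226). TFCP2L1, of the grainyhead-like superfamily, rose by 0.82 ± 0.18 at 3 h and 0.56 ± 0.18 at 24 h, differed by 0.01 ± 0.12 at 3 days (edgeR adjusted p = 0.940) and fell by 0.51 ± 0.12 at 12 days. KLF7 fell at all 4 times, by 0.64 ± 0.12, 0.49 ± 0.12, 0.21 ± 0.08 and 0.42 ± 0.08. KLF15, below the filter in the second table, rose by 2.55 ± 0.58 at 3 days and 1.99 ± 0.61 at 12 days, from 6 reads in the control group (0.113 CPM). KLF6 rose by 1.20 ± 0.10 and 1.69 ± 0.10 at the late times, and differed by −0.20 ± 0.10 (edgeR adjusted p = 0.233) and 0.22 ± 0.10 (edgeR adjusted p = 0.124) at 3 h and 24 h. The ETS factor ETV4 differed by −0.14 ± 0.16 at 3 h (edgeR adjusted p = 0.640), rose by 0.55 ± 0.16 at 24 h and fell by 0.64 ± 0.11 and 1.05 ± 0.11 at the late times.

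**Figure D4:**
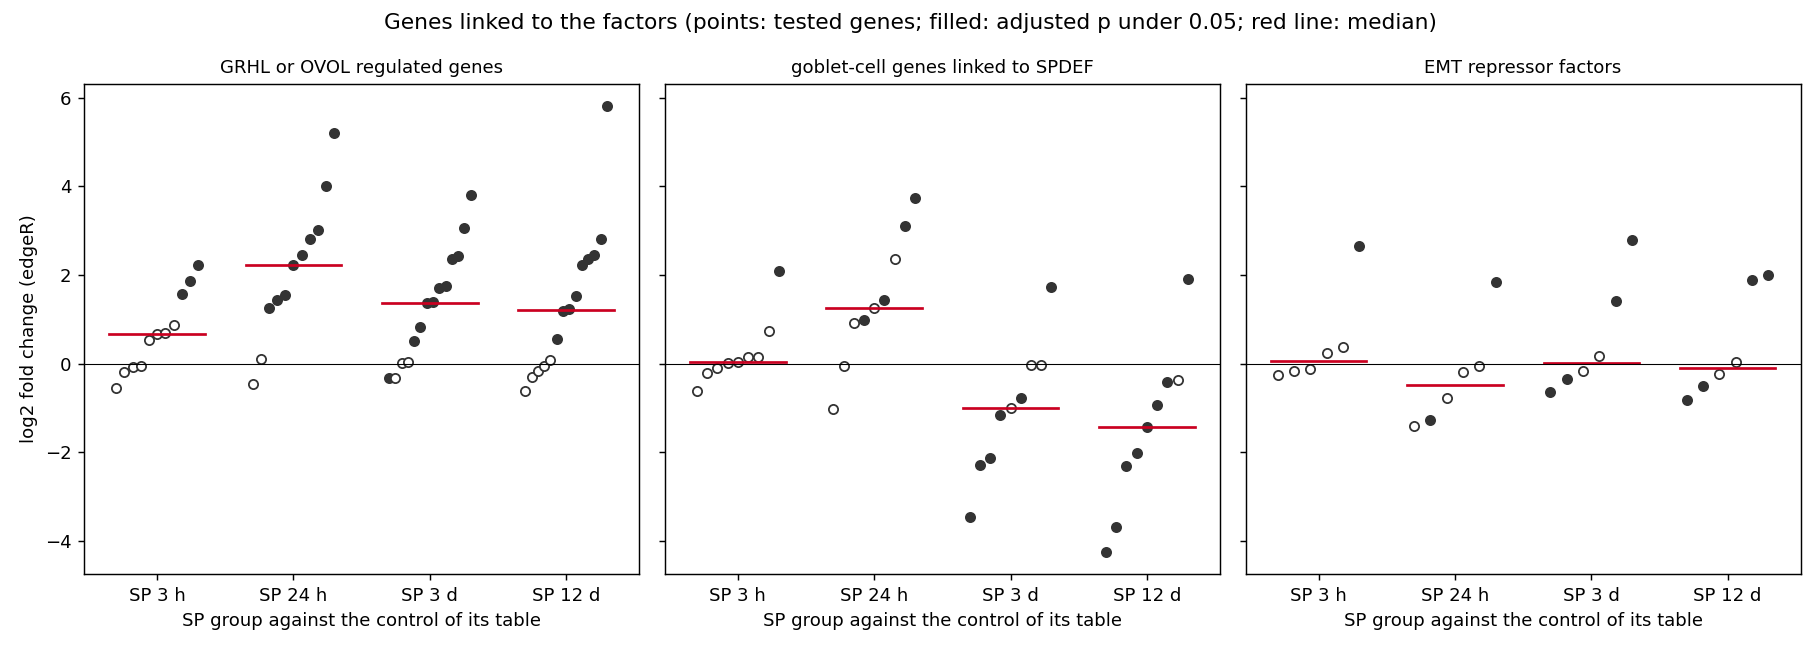
Log2 fold change against the control of the same table (y axis, edgeR) of the tested genes in 3 lists (panels) at each SP time (x axis), with points filled where the adjusted p was under 0.05 and a red line at the list median. The median of the genes regulated by GRHL or OVOL factors lies at 0.67, 2.23, 1.37 and 1.21, and that of the goblet cell genes at 0.04, 1.26, −1.0 and −1.43.

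The genes whose 4 log2 fold changes were closest to those of GRHL1, by the root mean square difference over 16654 genes tested in both tables, were CDK5R2 (0.196), CGB7 (0.222), DLX2 (0.267), RGS9BP (0.268) and WNT11 (0.308). For OVOL2 they were GJA3 (0.114), HCN4 (0.313), MAPT (0.411), ZBTB8B (0.431) and MIR9-3HG (0.433). GJA3, a lens connexin, was higher by 2.41, 2.91, 3.83 and 4.08 on the log2 scale at the successive SP times, beside 2.27, 2.78, 3.80 and 3.96 for OVOL2. The likeness rests on 4 values a gene from libraries that share their controls.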

How the data were processed

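Total RNA of A549 cells was sequenced as paired-end NEBNext Ultra libraries. Per the labels and the study's methods, the authors aligned reads with STAR 2.7.9a to GRCh38, counted them per gene with featureCounts, and deposited 2 tables of raw counts, which hold whole reads not normalized for depth or length. The strand setting is not given in the sources used here. Symbols, lengths and shared exon bases came from GENCODE. The authors' own fits used DESeq2 1.36.0.

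From the counts, edgeR 4.0.16 in R 4.3.3 was run on each table with its 9 libraries (filterByExpr with a minimum count of 10, TMM scaling, robust quasi-likelihood fit, group means, Benjamini-Hochberg adjustment over all tested genes). TMM factors lay between 0.969 and 1.037 in the first table and between 0.957 and 1.022 in the second. The median SE of a log2 fold change was 0.13 and 0.20. No libraries were identical. GRHL2 and OVOL1 did not pass the filter. Ratios of summed reads carry 95% counting intervals. Bulk RNA cannot tell fewer expressing cells from less RNA per cell.

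The members and lists were chosen with earlier results of these data known. Named genes were all members, up to 3 genes of each list with the largest absolute change among those that passed in both comparisons of a table, and the 5 genes most like GRHL1 and OVOL2. Alternatives were DESeq2 1.42.0, DESeq2 size factors, no filter, the study's rule, 2 groups only, a replicate block, a GC and length correction, and leaving out each library. Deviations from the group mean were correlated between libraries of the 24 h SP group and its control, at 0.170 to 0.504 for the same number. For unlike numbers the range was −0.546 to 0.175. Between the 3 h group and that control it was −0.592 to −0.028 for the same number and −0.573 to 0.576 for unlike numbers. The main fit did not pair libraries by number, and the replicate block was run as an alternative only.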

Additional observations from a re-analysis of the deposited data

Results flagged for a closer look

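Direct tests between the SP times of a table set 3 members apart at 24 h against 3 h. GRHL1 was lower at 24 h by a log2 difference of −0.87 (edgeR adjusted p = 0.00321), which leaving out single libraries moved between −0.93 and −0.83. KLF4 was lower by −0.50 (edgeR adjusted p = 0.0185, up to 0.0775 with single libraries left out). EHF was higher by 1.61 (edgeR adjusted p = 0.0136, up to 0.0521).

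At 12 against 3 days, GRHL3 was higher by 1.15 (edgeR adjusted p = 0.00767, up to 0.0548 with single libraries left out) and EHF by 1.03 (edgeR adjusted p = 1.07e-05), with EHF below its control at 3 days and above it at 12 days in every library. The groups compared also differ in time in culture, which cannot be told apart from the length of treatment.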

How the results depend on the processing

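Of 768 values recomputed for single genes, 714 kept their side of the threshold, 43 lost the call, 11 gained it and 0 calls reversed. Some differences that were not called changed sign. EHF at 24 h, −0.23 from control, reached 0.13 with a single library left out, and KLF4 at 24 h went from 0.03 to −0.14 in an alternative fit. By the study's rule with edgeR, 0 members rose and 0 fell at 3 h and at 24 h, and 2 rose and 1 fell at 3 days and at 12 days. Between 3 h and 24 h 0 rose and 0 fell by that rule, and between 3 and 12 days 1 rose and 0 fell. With 2 groups only, 1 member (GRHL1) rose at 3 h, where 6.02% of all genes were called. OVOL2 (adjusted p = 0.0628) and KLF4 (0.0977) were lost there in edgeR's fit. The replicate block gave 2 falling at 3 h, where it called 11.03% of all genes in either direction. With 2 groups only and the replicate block 0 rose and 0 fell there, where that fit called 0 of all 16151 genes. Its log2 fold changes were 2.40 for GRHL1, 2.16 for OVOL2 and −1.74 for EHF. The block changed no member call at 24 h against control. With the correction for GC content and length 1 fell at 24 h, where 34.2% of all genes were called. With no filter 1 fell from 3 h to 24 h, where 9.23% were called.

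With each library left out in turn, 1 to 3 members rose and 1 fell at 3 h, 2 to 5 rose and 0 fell at 24 h, 2 rose and 3 to 6 fell at 3 days, and 3 to 4 rose and 2 to 4 fell at 12 days. Between 3 h and 24 h, 0 to 3 rose and 1 to 2 fell, and between 3 and 12 days 1 to 2 rose and 0 to 1 fell. The share of all genes called without each library is not available here, so these counts stand without a background. GRHL1 at all 4 times, OVOL2 at 24 h and later, SPDEF at the late times and EHF at 3 h, 3 days and 12 days kept their calls in these refits. The causes of the changed calls were not tested. Depth limits GRHL2 and OVOL1, with at most 8 reads a group, and OVOL2 in its controls.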
